A study of Mus musculus with 20 samples.

Results

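Nup93, Gtf2h1, Cmss1, Itsn2, Ccdc81, D10Wsu102e and Gm20468 are 7 of the 32285 genes counted in nuclei of the mouse hippocampus. They were chosen by their unique molecular identifier (UMI) counts in CA1 nuclei, which were higher after ketamine than in awake mice. Their ketamine values are therefore given as a description with no p-value, and counts of them past a threshold support nothing beyond that choice. The choice names no isoflurane or genotype difference, and both were tested. Whether isoflurane mice served as a comparison in the choice is not stated. The awake mice of the isoflurane comparison and the ketamine mice of the ketamine by genotype comparison are the same mice that helped to choose the genes.

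The products of these genes work mostly around the nucleus. Nup93 is a scaffold nucleoporin of the inner ring of the nuclear pore, the channel through which RNA and proteins pass between nucleus and cytoplasm. Gtf2h1 is the p62 subunit of TFIIH, a complex that opens promoter DNA at the start of transcription and also serves nucleotide excision repair. Cmss1 is related to a yeast protein linked to the small ribosomal subunit, and D10Wsu102e is the mouse counterpart of NOPCHAP1, a chaperone in the assembly of box C/D small nucleolar ribonucleoproteins. Itsn2 (intersectin 2) is a scaffold of clathrin-mediated endocytosis that also activates Cdc42. Ccdc81 encodes a coiled-coil domain protein, and Gm20468 is annotated as a long intergenic non-coding RNA. Ketamine blocks NMDA-type glutamate receptors, whereas isoflurane is a volatile anesthetic with many targets, among them GABA-A receptors.

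The study profiled hippocampal nuclei of 20 male mice aged 4.5 to 5.5 months, 1 library per mouse. The mice were APP/PS1 hemizygotes (APPSwe/PS1ΔE9, labelled fAD) or wild-type (WT) littermates on a C57BL/6J background, so every comparison by state holds both genotypes. Awake mice were 6 WT-Awake (mice 1, 12, 13, 14, 19 and 29) and 3 fAD-Awake (mice 2, 10 and 17). Isoflurane was given at 5% and then 1.5% to 3 WT-ISO (mice 3, 16 and 18) and 4 fAD-ISO (mice 4, 11, 15 and 20). Ketamine at 150 mg/kg was given with xylazine at 12 mg/kg to 2 WT-KETA (mice 27 and 28) and 2 fAD-KETA (mice 25 and 26). Both anesthetics lasted 3 h. No group received xylazine alone, so ketamine and xylazine cannot be told apart, and "ketamine" below means both. The transgenes are driven by a prion protein promoter cassette. Prnp counts in CA1-like nuclei did not follow every genotype label. They were 206 and 465 CPM (a count scaled to a fixed total per mouse and class) in fAD-Awake mice 10 and 2 but 84.5 in mouse 17, against 59.4 to 186 in WT-Awake. The highest WT-Awake value, 186, was that of mouse 14. In fAD-ISO they were 66.0 in mouse 11, 106 in mouse 20, 189 in mouse 15 and 252 in mouse 4, against 63.3 to 117 in WT-ISO. In ketamine mice they were 41.96 and 49.4 in WT-KETA and 174 and 182 in fAD-KETA. The study's paper gives 4 mice each for its WT-Awake, fAD-Awake and WT anesthesia groups and 3 for its fAD anesthesia group. Those genotype counts differ from the labels used here, and the difference is not explained. Genotype groups below are thus groups as labelled.

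Libraries held 9243992 to 25394891 UMIs over 4743 to 10877 nuclei, and CA1-like nuclei numbered 369 to 1413 per awake mouse, 772 to 1540 per isoflurane mouse and 260 to 795 per ketamine mouse. The CA1-like class was named from 6 markers (Fibcd1, Wfs1, Mpped1, Pou3f1, Man1a and Spink8), with none of them at 0 in any state. Their summed level was 710 to 1154 CPM in awake mice, 646 to 1080 CPM in isoflurane mice and 641 to 784 CPM in ketamine mice. Mice 1 to 4, a WT-Awake, an fAD-Awake, a WT-ISO and an fAD-ISO mouse, stood apart from the rest. The CA1-like class joined a cluster of 13624 nuclei, 0.58% of them from mice 1 to 4, and a cluster of 3012 nuclei, 91.0% of them from mice 1 to 4, doublets included. Mitochondrial UMIs were 0.939 to 1.78% of the total in mice 1 to 4, 0.0353 to 0.0747% in ketamine mice and 0.0363 to 0.336% in the other 12 mice. Levels below are CPM after normalisation within a class, and log2 differences come from 1 edgeR fit per class. Each fit held all 20 mice, except that of microglia-like nuclei, which held 18. The ketamine mice carry the numbers 25 to 28 and share that run of numbers with a single awake mouse, 29. Whether the run marks a shared preparation is not given in the labels. Fits with the run of numbers as a term used blocks of mice 1 to 4, 10 to 13, 14 to 17, 18 to 20 and 25 to 29. The cuts after mice 13 and 17 were set in the analysis, since mice 10 to 20 form an unbroken series of numbers.

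Of the 7 genes, 5 were in the RefSeq promoter table (build GRCm38.p6), and stretches from 4 of them are printed 5′ to 3′ on the strand of the gene, because 3 hold the same palindromic letters before their start and the fourth holds another palindrome on its start. Capitals in the first 3 mark the E-box CACGTG, a site bound by basic helix-loop-helix factors. Capitals in the last mark the cyclic AMP response element TGACGTCA. The Nup93 stretch is chr8:94214314-94214563 on the plus strand, the D10Wsu102e stretch is chr10:83359971-83360220 on the plus strand, the Gtf2h1 stretch is the interval between its RefSeq start and that of the divergent gene Hps5 (chr7:46796065-46796093, plus strand), and the Cmss1 stretch is chr16:57606867-57606927 on the minus strand, ending on the first base of the RefSeq gene.
Nup93: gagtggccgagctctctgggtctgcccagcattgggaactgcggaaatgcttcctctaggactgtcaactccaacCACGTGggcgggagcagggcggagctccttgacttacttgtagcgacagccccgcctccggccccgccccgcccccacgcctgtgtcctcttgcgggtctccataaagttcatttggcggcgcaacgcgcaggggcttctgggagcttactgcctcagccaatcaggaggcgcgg
D10Wsu102e: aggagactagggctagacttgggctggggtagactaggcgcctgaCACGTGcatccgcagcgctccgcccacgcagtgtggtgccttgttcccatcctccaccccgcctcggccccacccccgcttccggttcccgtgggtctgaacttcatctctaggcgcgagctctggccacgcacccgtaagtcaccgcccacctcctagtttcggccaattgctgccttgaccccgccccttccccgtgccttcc
Gtf2h1 to Hps5: ggtCACGTGctccggaggcccgccccggc
Cmss1 start: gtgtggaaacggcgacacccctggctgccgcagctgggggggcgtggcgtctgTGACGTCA
Both motifs are their own reverse complement, so 1 search covers both strands. CACGTG lay in 3 of the 5 promoters (250 bases before to 50 after the start) against 7.15% of all 32851 promoters in the table, at position -175 in Nup93, -205 in D10Wsu102e, and -26 and 10 in Gtf2h1. TGACGTCA lay in 1 of 5, Cmss1, against 1.79% of all promoters. The hypoxia response core ACGTG lies within CACGTG and was found in the same 3 genes, against 19.6% of promoters. The other motifs searched on both strands were GGGCGG in 4 of 5 (35.7% of promoters), CCAAT in 2 of 5 (37.4%), CCGGAAG in 1 of 5 (8.86%), and TATAAA (13.6%), the NRF1 motif (0.971%) and the YY1 motif (0.633%) in none. These matches describe letters in a window, not bound sites.

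In CA1-like nuclei every ketamine mouse was above every awake mouse for all 7 genes, a pattern held by 2.81% of the 13756 genes tested there. The choice of the genes used this contrast, so the count says nothing about them beyond that choice. The per-mouse values did separate them in another way. Isoflurane mice overlapped with awake mice for Nup93, Gtf2h1, Cmss1 and Itsn2, whereas Ccdc81, D10Wsu102e and Gm20468 were mostly higher in isoflurane mice as well, as the plot of the 7 transcripts by group shows. Every ketamine mouse was also above every isoflurane mouse for 2 of the 7, Nup93 and Gtf2h1, as for 3.36% of genes.

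**Figure D1:**
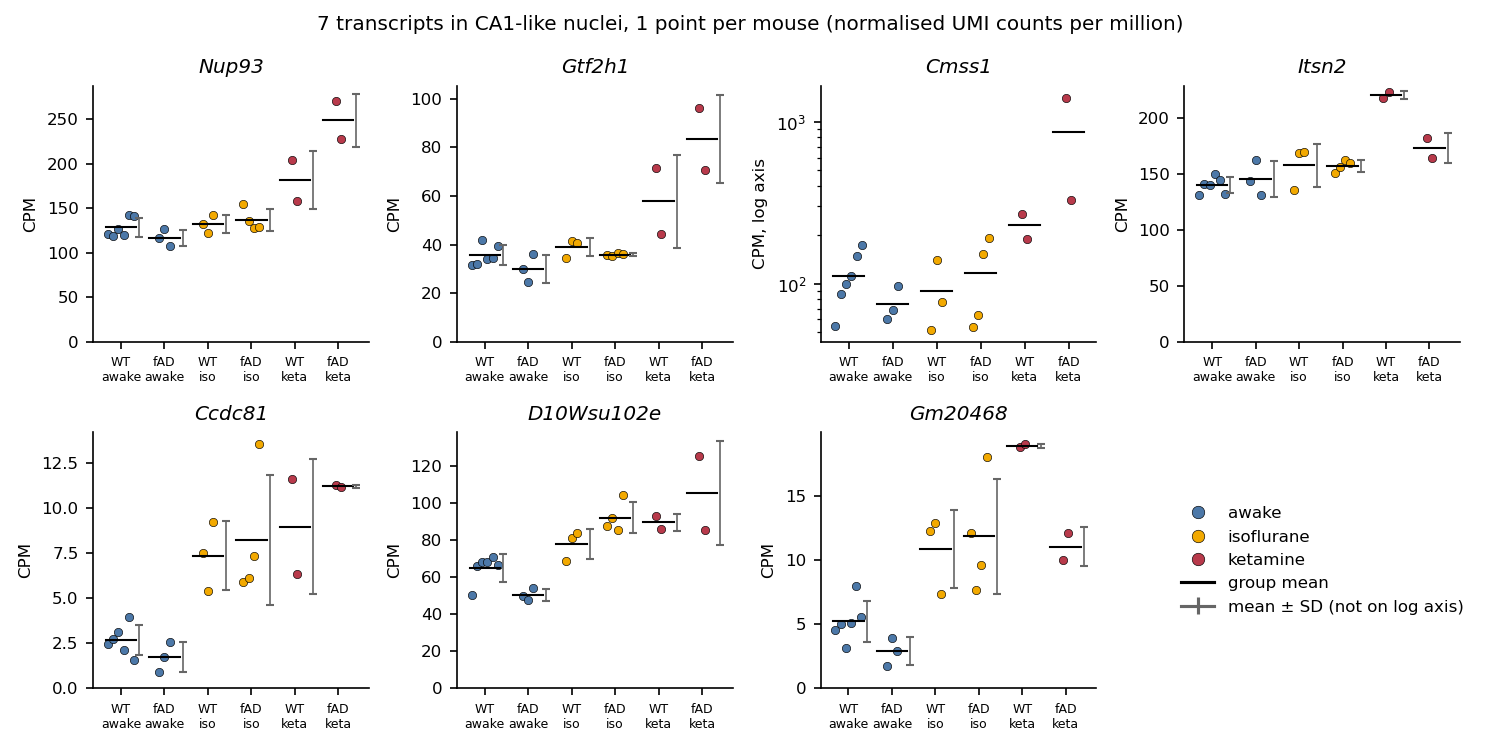
Level of each of the 7 genes in CA1-like nuclei (y axis, CPM, with a log axis for Cmss1), 1 point per mouse, by labelled genotype and state (x axis), with the group mean as a line and ± SD beside it on the linear axes. The 4 ketamine mice lie above all 9 awake mice in each panel, and for Nup93 (158 to 270 CPM) and Gtf2h1 (44.3 to 96.2 CPM) they also lie above all 7 isoflurane mice.

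Nup93, the pore scaffold gene, is annotated at chr8:94214564-94317227 (GRCm38, plus strand). Its level in awake mice was 108 CPM at the lowest, 121 at the median and 143 at the highest, and in isoflurane mice 122, 133 and 155. In ketamine mice it was 204 in mouse 27, 158 in mouse 28, 270 in mouse 25 and 228 in mouse 26. The ketamine mice were all above the other 16, with no overlap, and mouse 28 was nearest to them. The ketamine difference was 0.80 ± 0.10 on the log2 scale (SE, 1.74-fold), resting on 125 to 469 UMIs per ketamine mouse and 178 to 348 per awake mouse.

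Gtf2h1, the TFIIH subunit gene, is annotated at chr7:46796103-46823800 (GRCm38, plus strand). Awake mice had 24.4 CPM at the lowest, 34.2 at the median and 41.9 at the highest, and isoflurane mice had 34.7, 36.2 and 41.6. Ketamine mice had 71.4 in mouse 27, 44.3 in mouse 28, 96.2 in mouse 25 and 70.8 in mouse 26. The 4 values again lay above all others, mouse 28 by a small margin, and the ketamine difference was 1.09 ± 0.15 (2.13-fold). The log2 levels of Gtf2h1 and Nup93 had a Pearson r of 0.90 over the 20 mice and of 0.27 over the 16 mice without ketamine, so the relation rests on the ketamine mice. Both genes are read from the same libraries.

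Cmss1 (chr16:57302000-57606864, minus strand) varied most between mice. Awake mice had 54.8 CPM at the lowest, 95.9 at the median and 173 at the highest, and isoflurane mice had 51.5, 76.7 and 192. Ketamine mice had 269 in mouse 27, 189 in mouse 28, 1409.9 in mouse 25 and 329 in mouse 26. Mouse 28 lay just below the highest isoflurane mouse, so these groups overlapped, and mouse 25 stood far above every other mouse. The ketamine difference was 2.29 ± 0.40 (4.89-fold), and without mouse 25 it was 1.59 ± 0.39.

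Itsn2 (chr12:4592638-4713962, plus strand) showed the smallest ketamine difference of the 7, 0.45 ± 0.09 (1.37-fold). Awake mice had 131, 141 and 163 CPM at the lowest, median and highest, and isoflurane mice had 136, 159.6 and 169.6. Ketamine mice had 218 in mouse 27, 223 in mouse 28, 182 in mouse 25 and 164 in mouse 26. Both WT-KETA mice were above every isoflurane mouse, and mouse 26 was within the isoflurane range.

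Ccdc81 (chr7:89866148-89903629, minus strand) was a low gene, with 2 to 8 UMIs per awake mouse in CA1-like nuclei. Its level was 0.88, 2.44 and 3.98 CPM at the lowest, median and highest awake mouse, and 5.37, 7.33 and 13.6 CPM in isoflurane mice. Ketamine mice had 11.6 in mouse 27, 6.33 in mouse 28, 11.3 in mouse 25 and 11.2 in mouse 26. Awake mice overlapped with neither anesthetised group, and the ketamine and isoflurane ranges overlapped. The ketamine difference was 2.19 ± 0.34 (4.57-fold).

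D10Wsu102e is annotated at chr10:83360221-83488505 (plus strand) in GENCODE, a model of 128285 bases, whereas the RefSeq gene spans 8615 bases. Awake mice had 47.6, 66.2 and 71.0 CPM at the lowest, median and highest, and isoflurane mice had 68.5, 85.5 and 104. Ketamine mice had 92.9 in mouse 27, 86.1 in mouse 28, 125 in mouse 25 and 85.4 in mouse 26. The lowest isoflurane mouse fell below the highest awake mouse, and all ketamine mice were above it. The ketamine difference was 0.76 ± 0.12 (1.69-fold).

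Gm20468 (chr17:26861421-26898531, plus strand) had 4 to 14 UMIs per awake mouse. Awake mice had 1.76, 4.54 and 7.95 CPM at the lowest, median and highest, and isoflurane mice had 7.32, 12.1 and 18.0. Ketamine mice had 18.7 in mouse 27, 19.0 in mouse 28, 9.95 in mouse 25 and 12.1 in mouse 26. Here the WT-KETA mice were the highest of all 20, and the fAD-KETA mice fell within the isoflurane range. Ccdc81, D10Wsu102e and Gm20468 followed each other also without the ketamine mice, with Pearson r of 0.81 to 0.85 for the 3 pairs over 16 mice, which share libraries and fall into an awake and an isoflurane group. The ketamine difference of Gm20468 was 1.90 ± 0.29 (3.73-fold).

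The choice of the genes names no isoflurane difference, and whether isoflurane mice served as a comparison in it is not stated. The 9 awake mice had a part in it, and a choice that favours low awake values also pushes isoflurane against awake upward. In CA1-like nuclei 3 of the 7 genes were higher under isoflurane and none lower, where 3.42% of all genes were higher and 2.07% lower (edgeR quasi-likelihood test, Benjamini-Hochberg adjusted over 13756 genes, threshold 0.05). Ccdc81 rose by 1.82 ± 0.28 on the log2 scale (3.52-fold, adjusted p = 0.00083), and all 7 isoflurane mice were above all 9 awake mice, as for 0.851% of genes. Gm20468 rose by 1.55 ± 0.24 (2.93-fold, adjusted p = 0.0010), with the lowest isoflurane mouse under the highest awake mouse. D10Wsu102e rose by 0.56 ± 0.10 (1.48-fold, adjusted p = 0.0029). With the same number of nuclei drawn per mouse, Gm20468 no longer passed (1.13 ± 0.36, adjusted p = 0.095), while Ccdc81 and D10Wsu102e did. Without mice 1 to 4 all 3 passed, at 1.73 ± 0.33 for Ccdc81, 1.38 ± 0.30 for Gm20468 and 0.59 ± 0.11 for D10Wsu102e (adjusted p = 0.011, 0.024 and 0.011).

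The other 4 genes did not pass the isoflurane test. Nup93 differed by 0.14 ± 0.09 (95% interval -0.05 to 0.32, adjusted p = 0.45) and Gtf2h1 by 0.19 ± 0.12 (-0.07 to 0.45, adjusted p = 0.46). Itsn2 differed by 0.14 ± 0.08 (-0.02 to 0.31, adjusted p = 0.37). Cmss1 differed by 0.15 ± 0.36 (-0.61 to 0.92, adjusted p = 0.89), an interval wide enough to leave differences of up to 0.92 undetected in these mice. Set directly against isoflurane, ketamine mice were higher by 0.66 ± 0.11 for Nup93, 0.90 ± 0.15 for Gtf2h1, 2.13 ± 0.42 for Cmss1 and 0.31 ± 0.10 for Itsn2. For Ccdc81, D10Wsu102e and Gm20468 the same difference was 0.38 ± 0.31, 0.20 ± 0.13 and 0.35 ± 0.28, and with the run of numbers as a term it was 1.31 ± 0.91, 0.15 ± 0.25 and 0.32 ± 0.70. These last values share the ketamine mice that chose the genes and carry no test.

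**Figure D2:**
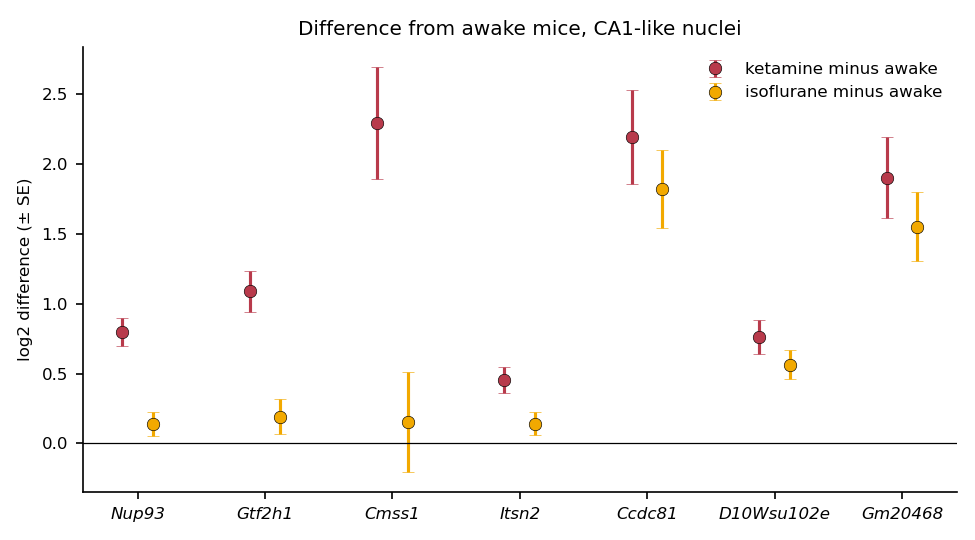
Log2 difference from awake mice in CA1-like nuclei (y axis, ± SE) for each gene (x axis), under ketamine and under isoflurane, from the same fit of 20 mice with shared awake mice. For Ccdc81 the values are 2.19 and 1.82, and for Nup93 they are 0.80 and 0.14.

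Neither genotype nor its combination with ketamine gave a call for groups as labelled. Prnp counts did not follow every label, so these tests cannot exclude a genotype difference. The study's paper, with a test on single nuclei, reported genes that differed between genotypes in CA1 excitatory neurons of awake and of anesthetised mice. It tested each state by itself, corrected for batch and used no ketamine mice there. The genotype test here is an average over the awake, isoflurane and ketamine states without a batch term. It is thus not the paper's comparison, which was not repeated. For APP/PS1 against WT in CA1-like nuclei, 0 of 7 members and 0 of 13756 genes (0%) passed in edgeR, 307 genes had an unadjusted p under 0.05, and DESeq2 also called 0. Log2 differences of the members ran from -0.48 ± 0.22 (Gm20468) to 0.58 ± 0.33 (Cmss1), each with an adjusted p of 1. For ketamine by genotype, again 0 of 7 members and 0 genes (0%) passed, with 350 genes at an unadjusted p under 0.05 in edgeR and 0 called by DESeq2. The ketamine difference was larger in fAD than in WT by 0.59 ± 0.21 for Nup93, 0.75 ± 0.30 for Gtf2h1, 2.48 ± 0.86 for Cmss1 and 0.59 ± 0.25 for D10Wsu102e. For Itsn2 the same difference was -0.41 ± 0.19. All had an adjusted p of 1, with 2 ketamine mice of each genotype label. In the other classes 0 of 49 pairs passed either test. Cmss1 had the larger values there, from 2.39 ± 0.82 in interneuron-like to 3.65 ± 1.67 in astrocyte-like nuclei, with mouse 25 as 1 of the 2 fAD-KETA mice.

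The same nuclei preparations held 8 other classes, named from their own markers, in which 49 pairs of gene and class could be tested. Under ketamine 26 of the 49 pairs passed in the higher direction and 0 in the lower one. The share of all genes higher under ketamine was 2.31% in CA3-like, 6.13% in dentate granule-like, 3.68% in subicular or cortical excitatory-like and 1.89% in interneuron-like nuclei. It was 5.13% in astrocyte-like, 2.36% in oligodendrocyte-like, 0.714% in oligodendrocyte precursor-like and 0.188% in microglia-like nuclei. The nuclei come from the mice and libraries that chose the genes, so these counts are a description. Cmss1 passed in all 8 classes, Nup93 and Ccdc81 in 5, Gtf2h1 and D10Wsu102e in 4, and Itsn2 and Gm20468 in none. With the run of numbers as a term 27 of the 49 differences moved by over 1.5 times, and 6 of these changed sign. Of the 26, 10 moved by over 1.5 times and 0 changed sign. Ketamine calls over all genes of these classes fell from 5478 to 12 with this term, so at most 12 of the 26 pairs can have stayed past the threshold.

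**Figure D3:**
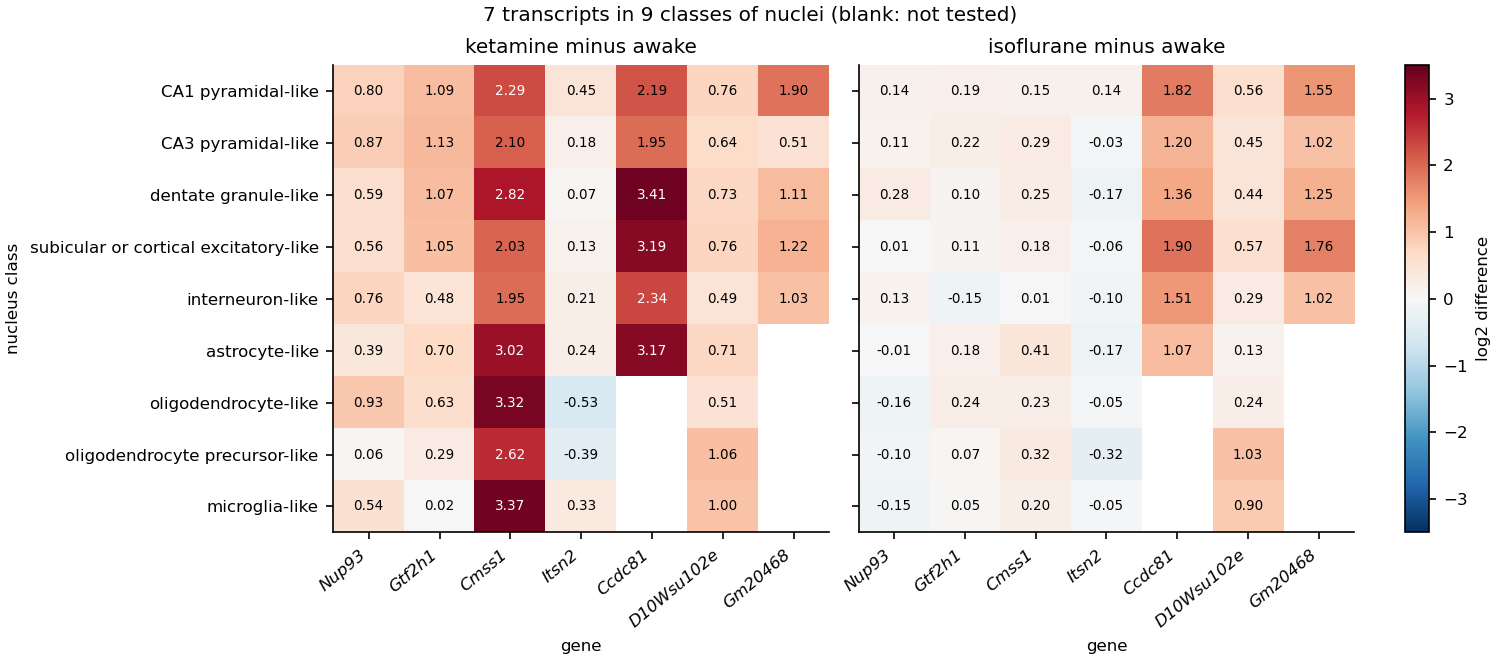
Log2 difference from awake mice (colour and printed value) for each gene (x axis) and class of nuclei (y axis), under ketamine on the left and isoflurane on the right, with blank cells where the gene did not pass the count filter. Ketamine values of Cmss1 lie between 1.95 and 3.37, those of Itsn2 between -0.53 and 0.45, and isoflurane values above 1 are found for Ccdc81, Gm20468 and D10Wsu102e.

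Awake levels of Nup93 were 132 ± 8.92 CPM in CA3-like, 128 ± 12.8 in dentate granule-like and 125 ± 11.2 in CA1-like nuclei (SD, n = 9), which did not differ beyond their spread, and 24.8 ± 4.89 in oligodendrocyte-like nuclei at the other end. Its ketamine difference was 0.87 ± 0.12 in CA3-like nuclei, where mice 27, 28, 25 and 26 had 266, 186, 305 and 213 CPM against 116 to 147 in awake and 117 to 169 in isoflurane mice. It was 0.93 ± 0.24 in oligodendrocyte-like nuclei, with 37.7 to 54.6 CPM in ketamine mice against 17.3 to 32.8 in awake mice. In oligodendrocyte precursor-like nuclei it was 0.06 ± 0.35. Groups of ketamine and awake mice did not overlap for Nup93 in CA3-like, interneuron-like, astrocyte-like and oligodendrocyte-like nuclei, where 2%, 1.78%, 3.46% and 2.78% of all genes behaved so.

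The ketamine differences of Gtf2h1 were 1.13 ± 0.22 in CA3-like, 1.07 ± 0.14 in dentate granule-like and 1.05 ± 0.17 in subicular or cortical excitatory-like nuclei, and 0.02 ± 0.43 in microglia-like nuclei. The first 3 were 1.21 ± 0.45, 0.72 ± 0.26 and 0.55 ± 0.31 with the run of numbers as a term. In dentate granule-like nuclei the ketamine mice had 81.5, 63.3, 103.6 and 72.5 CPM (mice 27, 28, 25 and 26) against 33.7 to 48.7 in awake and 32.9 to 47.8 in isoflurane mice, with no overlap between ketamine and awake mice, as for 3.16% of genes. In CA3-like nuclei mouse 28 had 23.2 CPM, below every awake mouse (28.0 to 34.97), while the other 3 had 60.1 to 105 CPM. Awake levels of Gtf2h1 were lowest in CA3-like (30.9 ± 2.33 CPM, SD, n = 9) and CA1-like nuclei (33.8 ± 5.19) and highest in microglia-like nuclei (63.9 ± 27.6, n = 8), and neighbours in this order overlapped. Differences between classes were not tested.

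The ketamine difference of Ccdc81 was 3.41 ± 0.36 in dentate granule-like, 3.19 ± 0.32 in subicular or cortical excitatory-like and 3.17 ± 0.70 in astrocyte-like nuclei, beside 2.19 ± 0.34 in CA1-like nuclei. The same 4 values were 2.69 ± 0.71, 3.49 ± 0.69, 6.42 ± 2.26 and 2.90 ± 0.80 with the run of numbers as a term. In dentate granule-like nuclei ketamine mice had 58.9, 19.1, 46.3 and 52.7 CPM (mice 27, 28, 25 and 26), isoflurane mice 7.11 to 17.2 and awake mice 1.47 to 9.15. There the ketamine mice lay above every isoflurane mouse, as for 2.93% of genes. In astrocyte-like nuclei ketamine mice had 5.80 to 16.5 CPM, against 0 to 3.52 in awake mice.

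D10Wsu102e, the snoRNP assembly gene, had its highest awake level in dentate granule-like nuclei (98.5 ± 22.4 CPM, SD, n = 9) and its lowest in microglia-like nuclei (34.9 ± 20.4, n = 8). Its ketamine difference lay between 0.49 ± 0.17 in interneuron-like and 1.06 ± 0.25 in oligodendrocyte precursor-like nuclei. These were 0.13 ± 0.25 and 0.70 ± 0.49 with the run of numbers as a term. In the latter class, ketamine mice had 63.6 to 114.5 CPM, isoflurane mice 60.003 to 124.6 and awake mice 13.6 to 52.9, so both anesthetised groups lay above the awake mice, as for 1.23% of genes under ketamine and 0.2% under isoflurane.

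Gm20468, the non-coding RNA, had at most 41 UMIs in an awake mouse in any class, and outside CA1-like nuclei, the class in which it was chosen, its ketamine difference passed in 0 of the 4 classes in which it could be tested. Differences between classes were not tested. In dentate granule-like nuclei ketamine mice had 4.42 to 8.39 CPM and awake mice 1.26 to 7.98. In subicular or cortical excitatory-like nuclei they had 2.94 to 14.0 CPM, below or within the isoflurane range of 5.93 to 15.6. In astrocyte-like nuclei, where it was too low to be tested, isoflurane mice had 4.20 to 12.5 CPM, awake mice 0 to 3.25 and ketamine mice 1.95 to 5.80, from 0 to 16 UMIs a mouse.

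Itsn2 was lower on average in oligodendrocyte-like nuclei, the class with its highest awake level (562 ± 106 CPM, SD, n = 9). Ketamine mice had 346, 393, 325 and 469 CPM (mice 27, 26, 25 and 28) against 374 to 704 in awake mice. The difference there was -0.53 ± 0.23 and in oligodendrocyte precursor-like nuclei -0.39 ± 0.21, neither past the threshold. In the other neuronal classes it lay between 0.07 and 0.21, below the 0.45 of CA1-like nuclei, and these differences between classes were not tested.

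Under isoflurane 9 of the 49 pairs in other classes were higher and 0 lower, all of them of Ccdc81, D10Wsu102e or Gm20468. The share of all genes higher under isoflurane was 1.36% in CA3-like, 1.4% in dentate granule-like, 4.05% in subicular or cortical excitatory-like and 1.16% in interneuron-like nuclei. It was 4.87% in astrocyte-like, 3.94% in oligodendrocyte-like, 0.513% in oligodendrocyte precursor-like and 0.171% in microglia-like nuclei. Ccdc81 rose in subicular or cortical excitatory-like (1.90 ± 0.31, adjusted p = 0.00093), interneuron-like (1.51 ± 0.36, adjusted p = 0.028), dentate granule-like (1.36 ± 0.33, adjusted p = 0.033) and CA3-like nuclei (1.20 ± 0.27, adjusted p = 0.021). D10Wsu102e rose in subicular or cortical excitatory-like nuclei (0.57 ± 0.12, adjusted p = 0.0051), with 90.8 to 106 CPM in isoflurane mice, above the 54.2 to 87.0 of all awake mice, as for 0.898% of genes there. It also rose in oligodendrocyte precursor-like (1.03 ± 0.21, adjusted p = 0.014), CA3-like (0.45 ± 0.12, adjusted p = 0.043) and dentate granule-like nuclei (0.44 ± 0.11, adjusted p = 0.047). Gm20468 rose in subicular or cortical excitatory-like nuclei (1.76 ± 0.33, adjusted p = 0.0027). With the run of numbers as a term the count was again 9, but D10Wsu102e in CA3-like nuclei did not pass (0.37 ± 0.11, adjusted p = 0.0503) and Gm20468 in dentate granule-like nuclei did (1.15 ± 0.33, adjusted p = 0.043). The count of 9 was 4 without mice 1 to 4, 4 with a gate on single nuclei, 2 with the same number of nuclei per mouse, and 3 to 5 when 1 of mice 2, 3, 10, 18 and 20 was left out.

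Awake mouse 29 shares the run of numbers of the ketamine mice, and for 6 of the 7 genes its level in CA1-like nuclei lay within the range of the other awake mice. In CA1-like nuclei it was below every ketamine mouse for all 7 genes. The choice of the genes favoured this, since mouse 29 is among the awake mice that helped to make it. Mouse 29 had 141 CPM of Nup93 (other awake mice 108 to 143), 39.6 of Gtf2h1 (24.4 to 41.9) and 1.58 of Ccdc81 (0.88 to 3.98). Cmss1 was the exception in these nuclei, since mouse 29 was the highest awake mouse at 173 CPM, above the 147 of the next. Mouse 29 also had the highest awake Cmss1 in dentate granule-like nuclei, at 226 CPM beside 220.4 in ketamine mouse 28. With the run of numbers as a term in the fit, mouse 29 carries the ketamine comparison, so a difference above 0 was favoured by the choice here too. Differences were above 0 for all 7 genes, from 0.53 ± 0.19 for Itsn2 and 0.64 ± 0.20 for Nup93 to 2.90 ± 0.80 for Ccdc81. That of Cmss1 was 1.50 ± 0.75.

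Cmss1, in awake mice, had 230 ± 154 to 291 ± 194 CPM in the 4 glial classes and 70.2 ± 26.1 to 121 ± 42.5 CPM in the 5 neuronal classes (SD). Cmss1 in mouse 25 was high in every class. It was 5.37 times the mean of the other 3 ketamine mice in CA1-like nuclei, 5.25 times in interneuron-like and 7.78 times in microglia-like nuclei, the ends of the range over 9 classes. Microglia-like nuclei of mouse 25 had 9330 CPM, those of the other ketamine mice 999 to 1344 and those of awake mice 85.4 to 717. A CA1-like nucleus of mouse 25 held a median of 8 Cmss1 UMIs and up to 49, whereas the median was 0 or 1 in each of the other 19 mice. Median total UMIs per CA1-like nucleus were 6310.5 in mouse 25 and 1593 to 5482 in the others.

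Genes that are often uneven between libraries were also higher in the ketamine libraries. Of 9 such genes in a list chosen with these data known, 5 were higher under ketamine (Lars2, Gm42418, AY036118, Camk1d and Zc3h7a) and 0 under isoflurane. Over all genes 4.26% were higher under ketamine and 3.42% under isoflurane. The 5 under ketamine became 0 without mouse 25, 1 without mouse 27 and 0 with the run of numbers as a term. The median log2 difference of the 9 genes was 0.60, and in these 3 settings 0.45, 0.52 and 0.59. Gm42418, which overlaps ribosomal RNA sequence, had 5153 CPM in mouse 25, 3427 in mouse 27, 1316 in mouse 26 and 749 in mouse 28, against 253 to 1001 in awake and 261 to 902 in isoflurane mice. Over whole libraries Cmss1 was 3322 CPM in mouse 25, 341 to 518 in the other ketamine mice and 277 in mouse 29. It was 60.7 to 72.9 in mice 1 to 4, 62.4 to 127 in mice 10 to 13, 119 to 240 in mice 14 to 17 and 78.4 to 231 in mice 18 to 20. Library, run of numbers and anesthetic cannot be told apart for this gene. The same holds by design for the other members, whose ketamine values come from the same libraries and run, with mouse 29 as its only awake mouse.

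**Figure D4:**
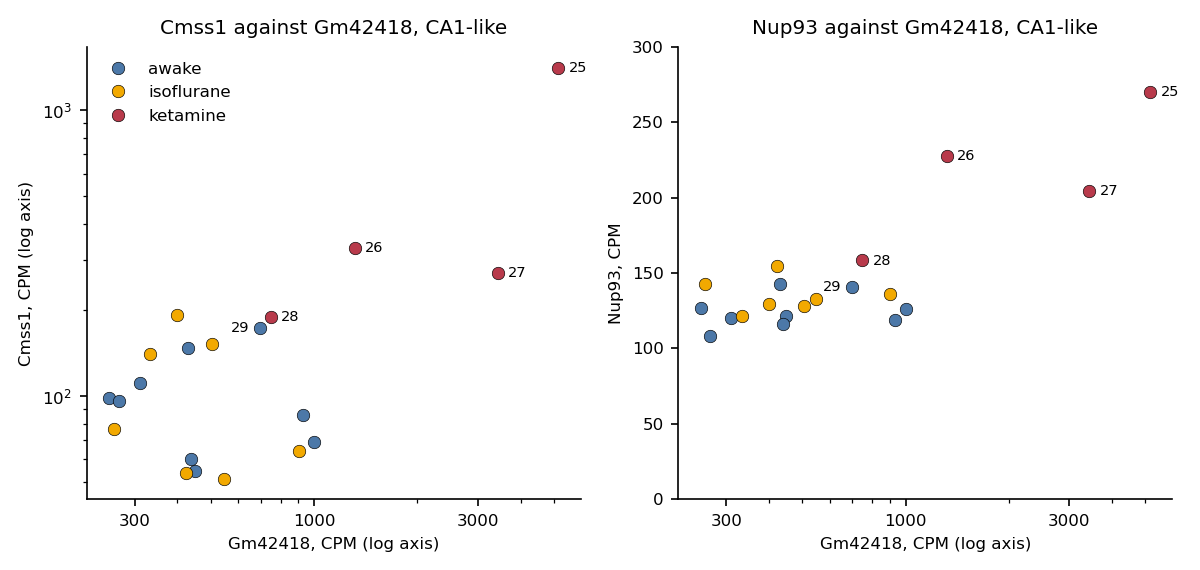
Cmss1 (left, log axis) and Nup93 (right, linear axis from 0) against Gm42418 (x axes, CPM, log axes) in CA1-like nuclei, 1 point per mouse, with mice 25 to 29 numbered. Mouse 25 is highest on both axes of both panels, while mouse 26, at 1316 CPM of Gm42418, has more Nup93 (228 CPM) than mouse 27 (204 CPM) at 3427 CPM of Gm42418.

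Markers of other tissue also differed in the ketamine libraries. In CA1-like nuclei Prg4, a gene of fibroblast-type cells, had 51.8 CPM in mouse 27, 1.27 in mouse 28, 7.96 in mouse 25 and 40.8 in mouse 26, against 0.35 to 4.15 in the other 16 mice. Mouse 28 had 25.3 CPM of Mfap5, a matrix gene, and mouse 27 had 6.25, against 0 to 2.18 in the other 18 mice. Dnase1l3 was at 5.07 to 17.5 CPM in the ketamine mice and 0 to 1.58 in the others. The summed fibroblast markers were 5.49 to 106 CPM in awake, 21.1 to 117 in isoflurane and 53.7 to 193 in ketamine mice. Of 15 other classes, 10 had a higher median of summed markers in ketamine than in awake mice. Dentate granule markers summed to 73.6 to 153 CPM in ketamine mice (median 108) and 40.1 to 104 in awake mice (median 66.6), and choroid or ependymal markers had medians of 72.9 and 29.7, with ranges of 25.2 to 180.5 and 13.6 to 809. The median of the CA1 markers was 708 CPM in ketamine mice, 851 in isoflurane and 1090 in awake mice. Their part in the members' values was not tested.

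Of the genes that overlap a member or lie within 50000 bases of it, 23 could be tested in CA1-like nuclei. Under ketamine 3 were higher and 0 lower, where 4.26% of all genes were higher and 5.01% lower. All 3 overlapped a member on the opposite strand, while 0 of 16 tested neighbours without overlap passed. Gm48678, an antisense gene sharing 60549 bases with Itsn2, was higher by 0.87 ± 0.21 (adjusted p = 0.015), with 372 to 530 CPM in ketamine and 186 to 458 CPM in awake mice. Aldh1l2, a mitochondrial folate enzyme gene that shares 1056 bases with the long D10Wsu102e model, was higher by 1.93 ± 0.38 (adjusted p = 0.0039). Gm17382, which shares 24782 bases with Gm20468, was higher by 0.87 ± 0.27 (adjusted p = 0.047). With the run of numbers as a term none of the 3 passed, at 0.01 ± 0.23 for Gm48678, 2.85 ± 0.78 for Aldh1l2 and 1.43 ± 0.46 for Gm17382. Gm48678 was at 458 CPM in awake mouse 29, within its ketamine range, whereas Itsn2 was at 132 CPM in that mouse, below every ketamine mouse. Leaving out mice also ended these calls. Gm17382 did not pass without any 1 of the 4 ketamine mice (0.77 to 0.94, adjusted p = 0.094 to 0.19). Gm48678 did not pass without mouse 25 (adjusted p = 0.058), without mouse 27 (adjusted p = 0.087) or without mice 1 to 4 (adjusted p = 0.053), and Aldh1l2 did not pass without mouse 27 (1.59 ± 0.48, adjusted p = 0.098). The study's methods counted intronic reads with Cell Ranger and do not state how strand was handled. Whether reads of a member were counted for its opposite-strand partner was not tested.

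**Figure D5:**
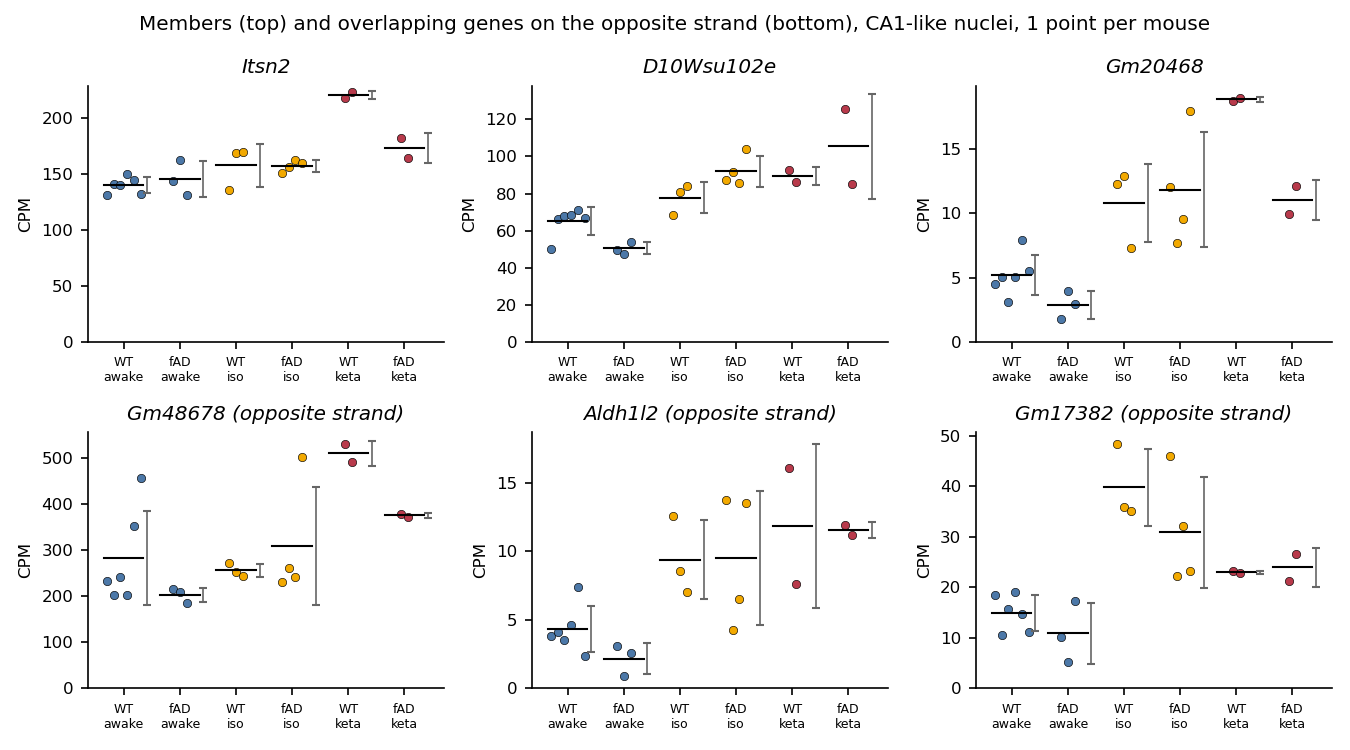
Level in CA1-like nuclei (y axes, CPM) of 3 members (top) and of the gene on the opposite strand that overlaps each (bottom), 1 point per mouse by labelled genotype and state (x axes), with group means as lines and ± SD. Gm48678 is at 372 to 530 CPM in ketamine mice, and Gm17382 is at 22.3 to 48.5 CPM in isoflurane mice against 5.24 to 19.0 CPM in awake mice.

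Under isoflurane 3 of the 23 were higher, 2 of them overlapping a member, and 0 lower, where 3.42% of all genes were higher and 2.07% lower. Aldh1l2 rose by 1.61 ± 0.31 (adjusted p = 0.0047), but without mice 1 to 4 it did not pass (1.51 ± 0.38, adjusted p = 0.055). Gm17382 rose by 1.44 ± 0.22 (adjusted p = 0.00068), whereas Gm48678 differed by 0.24 ± 0.18 (adjusted p = 0.57) and AC144621.3, a second gene opposite Gm20468, by 0.81 ± 0.39 (adjusted p = 0.28). Gm46332, 23100 bases from Itsn2, also rose (2.23 ± 0.54, adjusted p = 0.018), with 1.38 to 6.63 CPM in isoflurane mice. Hps5, whose start faces that of Gtf2h1 across the short interval printed above, differed by -0.25 ± 0.23 under ketamine (adjusted p = 0.51) and -0.37 ± 0.18 under isoflurane (adjusted p = 0.29). Filip1l, inside Cmss1 on the opposite strand, differed by 0.59 ± 0.39 (adjusted p = 0.35) and 0.13 ± 0.33 (adjusted p = 0.91). The metallothionein genes Mt1 and Mt2 beside Nup93 did not pass either test.

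Other genes of the same pathways were taken from lists with the members left out. Of 26 nuclear pore genes tested in CA1-like nuclei, 4 were higher under ketamine, where 4.26% of all genes were, and 0 lower, with a median log2 difference of 0.11 beside -0.04 over all genes. These were Nup205, the inner ring partner of Nup93 (0.67 ± 0.15, adjusted p = 0.0098), the central channel gene Nup54 (0.85 ± 0.22, adjusted p = 0.018), the membrane nucleoporin Nup210 (0.63 ± 0.17, adjusted p = 0.025) and the outer ring gene Nup133 (0.62 ± 0.19, adjusted p = 0.047). The count of 4 was 1 without mouse 25, 2 without mouse 26, 0 without mouse 27, 3 without mouse 28 or without mice 1 to 4, and 0 with the run of numbers as a term. Without mouse 27 Nup133 differed by 0.40 ± 0.23, and in the fit with the run of numbers it differed by 0.19 ± 0.41 and Nup205 by 0.43 ± 0.30. Under isoflurane 0 of the 26 passed in either direction, with a median of -0.02. The gene Nup205 did with the run of numbers as a term (0.39 ± 0.12, adjusted p = 0.047), beside 0.41 ± 0.13 without it (adjusted p = 0.064).

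Of 28 general transcription factor genes other than Gtf2h1, 0 were higher and 3 lower under ketamine, where 5.01% of all genes were lower, with a median of -0.25. With the run of numbers as a term 0 of the 28 passed, the median was -0.01 and 14 of 28 were above 0. Gtf2h4, another TFIIH subunit, fell by 1.16 (SE 0.25, adjusted p = 0.0074), and the TFIID subunits Taf6 and Taf1 fell by 0.82 (adjusted p = 0.028) and 0.54 (adjusted p = 0.028). Without mouse 25 or without mouse 27 none of the 28 passed, without mouse 26 or without mice 1 to 4 just 1 did, and under isoflurane 0 did. Of 55 ribosome biogenesis genes, 0 were higher and 2 lower under ketamine, Imp4 by -1.16 ± 0.29 (adjusted p = 0.018) and Heatr1 by -0.72 ± 0.21 (adjusted p = 0.037), and under isoflurane Mphosph10 alone was lower (-0.48 ± 0.13, adjusted p = 0.033). Over all genes 2.07% were lower under isoflurane. Without mice 1 to 4 none of the 55 passed under isoflurane (lowest adjusted p = 0.19), and with the run of numbers as a term 1 was higher and 1 lower. The 2 lower genes under ketamine became 1 without mouse 25 or mouse 28 and 0 without mouse 26, without mouse 27, without mice 1 to 4 or with the run of numbers as a term.

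Of 43 clathrin endocytosis genes, 3 were higher and 5 lower under ketamine, where 4.26% of all genes were higher and 5.01% lower. The median of the 43 was -0.03. The counts of 3 and 5 were 1 and 2 without mouse 25, 1 and 1 without mouse 27 and 0 and 1 with the run of numbers as a term. The lipid phosphatase genes Synj1 and Synj2 went in opposite directions, at 0.77 ± 0.11 (adjusted p = 0.00065) and -2.80 ± 0.38 (adjusted p = 0.00058). Hip1, Ap2b1 and Cdc42 fell by 0.84, 0.68 and 0.47 (adjusted p = 0.0074, 0.0078 and 0.015). Under isoflurane 0 were higher and 4 lower (Synj2, Dnajc6, Epn2 and Pacsin1), where 3.42% of all genes were higher and 2.07% lower. The 4 became 1 without mice 1 to 4 and 6 with the run of numbers as a term. Activity-regulated genes, which neurons switch on when they fire, were lower in 4 of 5 cases under each anesthetic. The share of all genes that were lower was 5.01% under ketamine and 2.07% under isoflurane. Activity-regulated genes were lower in 2 or 3 cases when 1 ketamine mouse was left out of the ketamine comparison. Their median under ketamine was -1.63. In the fit with the run of numbers it was -1.67, with 1 of the 5 lower under ketamine and 5 under isoflurane. Npas4 fell by 3.59 (adjusted p = 0.00017) and Arc by 3.00 (adjusted p = 0.00066) under ketamine, and by 1.53 (adjusted p = 0.00055) and 2.43 (adjusted p = 0.00012) under isoflurane. Fos did not pass under ketamine and was the 1 gene of the 5 above 0 there, with 0.89 to 25.2 CPM in ketamine and 1.70 to 15.8 in awake mice. The highest value was that of mouse 25. Fos was also among the leading genes of a fibroblast-like cluster, as were Dnase1l3 and Prg4. The part of such nuclei in the Fos values was not tested. Of 8 heat shock genes 0 passed under either anesthetic, and 1 was lower under isoflurane with the run of numbers as a term (adjusted p = 0.041) and 1 under ketamine without mice 1 to 4 (adjusted p = 0.016), where 6 were tested.

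The genes whose log2 levels followed the mean z-score of the 7 members most closely over 20 mice were Gm48249 (Pearson r = 0.91), Elovl2 (0.91), Tbcel (0.89), Gatb (0.89) and Rab31 (0.89). Tbcel, a tubulin-binding protein gene, had 38.2 to 52.5 CPM in awake, 45.4 to 67.2 in isoflurane and 63.3 to 107 in ketamine mice. Over the 16 mice without ketamine the closest were Pappa2 (0.94), Gm35554 (0.94), Anks4b (0.93), Itga2 (0.93) and Gm33206 (0.92). Gm33206 had 3.96 to 29.0 CPM in awake, 43.5 to 133 in isoflurane and 18.6 to 46.9 in ketamine mice. The 2 sets of 5 shared no gene, and all points share depth and library with the members.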

How the data were processed

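Single-nucleus RNA was sequenced from the hippocampus of 20 mice, 1 library per mouse. The deposited values are whole-number counts of UMIs, made by the authors, per the labels, with Cell Ranger 5.0.0 against mm10. Their methods also name the counting of intronic reads, CellBender, DoubletFinder and MAST, and whether CellBender was applied to these counts is not given in the sources used here. The 160777 nuclei all had at least 200 genes, and pairs of libraries shared at most 35 barcodes.

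From the counts, simulated doublets marked 10844 nuclei (6.74%). Nuclei were embedded on 2000 variable genes and 30 components, clustered (Leiden resolution 1, 40 clusters) and named where at least 3 markers were 2-fold higher. Clusters over 40% doublets (8) and 4 others were left unnamed, which left 16414 CA1-like nuclei, and 6666 of these were also CA1-like by a gate on single nuclei. Counts were summed per mouse and class (at least 50 nuclei) and fitted with edgeR 4.0.16 in R 4.3.3 (TMM, filterByExpr, glmQLFit and glmQLFTest, Benjamini-Hochberg over all genes of a class, threshold 0.05), with 6 groups of genotype and state. Only the fitting of summed counts was tested on simulated data, which were modelled on CA1-like nuclei without an effect of the run of numbers. Doublet marking, clustering and class naming were not tested in this way. DESeq2 1.42.0 was an alternative. Python 3.11.15 was used for clustering. Fibroblast-like nuclei were not tested, because different clusters held them in different groups, a choice made after seeing the data.

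The 7 genes, the gene lists and the motifs were chosen with earlier results of these data known. Genes named beside the 7 were list genes past the threshold in either anesthetic comparison (at most 5 a list, by adjusted p), genes overlapping or within 50000 bases, and the 5 closest by Pearson r. Gene positions come from GENCODE vM21 (GRCm38). CPM are not scaled for length, so levels are not compared between genes. The label field on perfusion and the methods on decapitation differ, and which was done is not settled here.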

Additional observations from a re-analysis of the deposited data

Results flagged for a closer look

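Within groups of 4 or more mice, 9 values of 107 groups stood apart from the rest by Dixon's criterion, and chance alone marks about 1 in 20 groups. No member differed between genotypes in its ketamine difference by the test of that difference after adjustment. D10Wsu102e was 50.2 CPM in CA1-like nuclei of WT-Awake mouse 1, with the next mouse at 66.2, and 70.8 CPM in CA3-like nuclei of WT-Awake mouse 19, with the next at 52.5. It was 60.8 CPM in astrocyte-like nuclei of fAD-ISO mouse 20, with the next at 40.3. Itsn2 was 112 CPM in dentate granule-like nuclei of fAD-ISO mouse 4, with the next at 133. Gm20468 was 9.90 CPM in subicular or cortical excitatory-like nuclei of WT-Awake mouse 29, with the next at 4.00. Ccdc81 was 1.17 CPM in interneuron-like nuclei of WT-Awake mouse 1, with the next at 6.16, and 3.52 CPM in astrocyte-like nuclei of WT-Awake mouse 19, with the next at 1.24. Nup93 was 87.0 CPM in microglia-like nuclei of WT-Awake mouse 19, with the next at 49.8. Cmss1 was 717 CPM in microglia-like nuclei of WT-Awake mouse 29, with the next at 313. The cause of these values was not tested. The ketamine groups hold 2 mice each, too few for this criterion, so Cmss1 in mouse 25 was not among the values examined.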

How the results depend on the processing

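The run of mouse numbers as a term was the only block fitted. Its cuts after mice 13 and 17 lie within an unbroken series of numbers and were set in the analysis, not taken from the labels. The replicate numbers are mouse numbers, each used once, and the labels do not say which mice were prepared together. The study's methods describe batches that held the awake and general anesthesia groups of both genotypes, and they name no ketamine group there. No called value changed sign. Of values that were not called, Cmss1 under isoflurane in CA1-like nuclei (0.15) was -0.09 without mouse 16 and -0.03 without mouse 20. With the run term 6 ketamine differences outside CA1-like nuclei changed sign. Among them were Gm20468, at -0.49 in CA3-like and -0.10 in subicular or cortical excitatory-like nuclei, and Itsn2, at -0.08 in dentate granule-like and -0.09 in interneuron-like nuclei. The cause of each shift below was not tested except where fewer mice or nuclei entered. Ketamine calls in CA1-like nuclei (1275) were 733 with the single-nucleus gate, 739 with equal nuclei per mouse, 50 with the run of mouse numbers as a term and 283 to 1457 with 1 mouse left out (839 without mouse 2, 500 without 25, 744 without 26 and 283 without 27). In other classes (5478 calls) the same 3 settings gave 3597, 3046 and 12, and leaving out 1 mouse gave 855 to 6875 (3080 without mouse 2, 1561 without 25, 2732 without 26, 855 without 27 and 3464 without 28). Isoflurane calls in CA1-like nuclei (756) were 267 with equal nuclei, 1435 with the run term, 232 without mice 1 to 4 and 436 to 810 with 1 mouse left out (449 without mouse 2, 480 without 3 and 436 without 10). In other classes (3624) they were 2273 with the gate, 2043 with equal nuclei, 6263 with the run term, 1966 without mice 1 to 4 and 2096 to 4242 with 1 mouse left out (2096 without mouse 10 and 2409 without 18). The 9 member calls there were 4 with the gate, 2 with equal nuclei, 4 without mice 1 to 4 and 3 to 10 with 1 mouse left out (4 without mouse 2, 3 or 10, 3 without 18 and 5 without 20). Genotype calls in other classes (0) were 1 with equal nuclei, 4 with no gene filter and 6 with the run term. Calls for ketamine by genotype (0) were 2 with the run term in CA1-like nuclei, and in other classes 1 with doublets kept, 1 at Leiden resolution 2, 6 with no filter, 14 with the run term, 3 with DESeq2 and 0 to 1 with 1 mouse left out. Calls between ketamine and isoflurane in CA1-like nuclei (978) were 512 with the gate, 415 with equal nuclei, 647 with no filter, 4 with the run term and 62 to 1106 with 1 mouse left out (646 without mouse 15, 577 without 18, 198 without 25, 490 without 26, 62 without 27 and 593 without 28). The ketamine difference of each of the 7 genes in CA1-like nuclei was above 0 in 30 of 30 fits, from 0.64 to 0.88 for Nup93, 0.89 to 1.24 for Gtf2h1, 1.50 to 2.64 for Cmss1, 0.32 to 0.53 for Itsn2, 1.93 to 2.90 for Ccdc81, 0.61 to 0.89 for D10Wsu102e and 1.52 to 2.04 for Gm20468. The choice of the genes favoured this sign in advance, so the count of fits is a description. The 3 isoflurane calls of members in CA1-like nuclei stayed at 3 with each mouse left out. Counts of 2 to 8 UMIs per awake mouse limit Ccdc81, and 4 to 14 limit Gm20468.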

Other observations

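Fibroblast-like nuclei entered no test. Mouse 25 had 23414 CPM of Cmss1 there, the other 3 ketamine mice 1489.5 to 2553, awake mouse 29 had 1982 and the 10 other mice with at least 50 such nuclei 75.1 to 500.3. Ccdc81 was too low to test in oligodendrocyte precursor-like and microglia-like nuclei, where it lay between 0 and 7.56 CPM and at 0 CPM in awake mice, and between 11.1 and 34.8 CPM and between 0 and 32.2 CPM in ketamine mice. In oligodendrocyte-like nuclei it was listed at 0 in every awake and every ketamine mouse.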
